A study of Mus musculus with 12 samples.

Results

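The glutathione S-transferases described here were the 10 genes Gsta2, Gsta3, Gsta4, Gstm1, Gstm2, Gstm3, Gstm4, Gstp1, Gstt1 and Mgst1. They were chosen by gene symbol among the 21705 genes of the sequenced liver transcriptome, and each symbol was found once. The livers came from female C57BL/6J mice of 10 to 12 weeks. The 6 control mice received saline and the 6 LNA29 mice received 2 locked nucleic acids, LNA29a and LNA29bc, at 20 mg/kg each by tail vein. The locked nucleic acids are short modified oligonucleotides that pair with the microRNAs miR-29a and miR-29b/c and block them. All livers were collected 7 days after the dose and after a fast of 18 h, which both groups shared. The control of the sequenced livers was the vehicle, so miR-29 inhibition and exposure to an oligonucleotide cannot be told apart among them. The comparison of LNA29-treated with saline-treated livers asks which liver transcripts differ 7 days after the inhibitors were given.

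Glutathione S-transferases join the tripeptide glutathione to reactive, mostly fat-soluble compounds, which makes them soluble and ready for export from the hepatocyte. The soluble enzymes are dimers and fall into classes by sequence, among them alpha (Gsta), mu (Gstm), pi (Gstp) and theta (Gstt), whereas Mgst1 belongs to a separate family of membrane proteins. Liver expresses them at high levels, and several are induced by drugs and by oxidative stress through the transcription factor Nrf2 and the receptors CAR and PXR.

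The sequences that the inhibitors address are shown because a direct target of miR-29 would carry their complement. The mature forms are given from 5′ to 3′ from RefSeq (GRCm38.p6), with the seed, bases 2 to 8, in capitals.
miR-29a-3p: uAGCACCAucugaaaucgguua
miR-29b-3p: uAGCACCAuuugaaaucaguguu
miR-29c-3p: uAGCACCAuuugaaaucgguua
The first lies at chr6:31062673-31062694 on the minus strand. The sequence of miR-29b-3p is encoded at chr6:31063025-31063047 on the minus strand and at chr1:195037091-195037113 on the plus strand, and miR-29c-3p lies at chr1:195037600-195037621 on the plus strand. All of them share the seed AGCACCA, whose complement in a transcript is TGGTGCT. None of the 10 members held TGGTGCT in its longest annotated 3′ UTR (GENCODE M21, GRCm38), over 3884 bases in all. These 3′ UTRs were short, from 66 bases in Gstp1 to 828 bases in Gstm4, against a median of 1142 bases over the 12125 tested genes with an annotated 3′ UTR, of which 15.5% held the match. Of the other genes of the family, Gstz1 held 1 match in a 3′ UTR of 893 bases. Without its first base, the match TGGTGCT occurred 1 time in the 3′ UTR of Mgst1 and in that of no other member. How often this shorter match occurs over all tested genes was not counted. The absence of the full match says only that these letters are not in these windows.

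The values are reads per gene, scaled so that the upper quartile of genes with reads was 1000 in a liver (998.4 in saline 49), and a gene without reads was listed at 1. Livers are named by their group and animal number. Saline livers held 8217212 to 19062437 reads on genes (median 12011981.5) and LNA29 livers 7696081 to 15079236 (median 9123458). In saline livers 1 read was worth between 9.80 and 17.5, and in LNA29 livers between 12.5 and 24.4. By median the LNA29 livers were thus the less deeply sequenced group. The part of depth in the log2 fold changes, above all of genes with few reads, was not tested. The tissue was as labelled, with albumin (Alb) taking 35.7% to 46.9% of all reads, and all 6 hepatocyte markers were detected. Saline 49 had the lowest albumin share (35.7%), apart from the next lowest liver, saline 43 (43.6%). Summed hepatocyte markers ranged from 31845700 to 108519000 in saline livers with a median of 87701600. In LNA29 livers they ranged from 78764700 to 93440700. No marker of bile duct, Kupffer, stellate or endothelial cells was at 0 in all livers. In bulk liver, fewer cells of a type and less RNA per cell cannot be told apart. No labels tie mice to separate litters or batches, and p-values measure the spread between these mice.

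Levels between members were compared per kilobase of the principal transcript. In saline livers Gstm1 was highest, with a median of 90681 per kilobase and a range of 68115 to 168116, and Mgst1 followed with a median of 77102 and a range of 69930 to 135213, so that these neighbours overlapped. A gap separated Mgst1 from Gsta3, whose median was 19494 per kilobase, and Gstp1 (13093) and Gstt1 (8731) followed with overlapping ranges. A further gap separated Gstt1 from Gstm2 (2558 per kilobase), Gsta4 (2134), Gstm3 (652), Gstm4 (623) and Gsta2 (477), each of which overlapped the next. Gstm1 rested on 2730 to 14447 reads per liver and Gsta2, at the other end, on 3.6 to 46.7.

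All 10 members passed the filter on low values, a mean of at least 10 over the 12 livers. Across the family, 9 of the 10 members had a lower mean log2 value in LNA29-treated than in saline-treated livers, where 61.4% of the 12486 tested genes did. Their median log2 fold change was -0.37, against -0.09 over all tested genes. With limma and Benjamini-Hochberg adjustment over all tested genes, 0 of 10 members passed an adjusted p of 0.05, and 0.160% of all genes did. At an unadjusted limma p under 0.05, 4 of 10 members were lower in LNA29 livers and none was higher, and 5.97% of all genes were lower at that level. DESeq2 called 1 of 10 members, Gstt1, and 0.818% of the genes it tested, and edgeR called none of the 10. In no member did all 6 LNA29 livers lie below all 6 saline livers, which was the case for 0.713% of all genes. The members share livers, so their differences are not independent of each other.

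**Figure D1:**
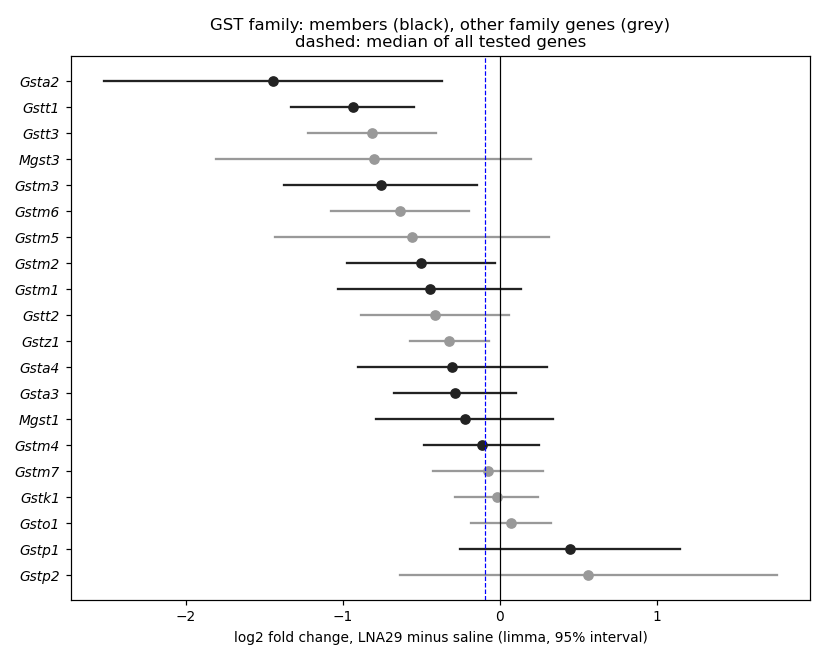
Log2 fold change of LNA29 minus saline with its 95% interval in limma (x axis) for the 10 members (black) and for the 10 other family genes whose group means sum to at least 200 (grey), ordered by size. Gsta2, Gstt1, Gstm3 and Gstm2 are the members whose intervals lie below 0. Gstp1 is the only member with a fold change above 0, and its interval includes 0. The dashed line is the median of all tested genes, -0.09.

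The theta-class member Gstt1, whose enzyme conjugates small halogenated compounds and epoxides, had the largest difference relative to its error. In saline livers Gstt1 ranged from 5880 to 11070.2 with a median of 9054, and in LNA29 livers from 3315 to 6339.6 with a median of 4715. The lowest LNA29 livers were 54 and 44, the highest was 48, and only LNA29 48 reached into the saline range, where it exceeded saline 49 alone. The means were 8767 ± 1948 and 4599.7 ± 1166 (SD, n = 6 each), a ratio of 0.525. The log2 fold change was -0.94 with a standard error of 0.19, ranked 21 of all tested genes by p, and missed the threshold in limma (adjusted p = 0.0588). Permuting the group labels of the 12 livers in every possible way (exact, two-sided) gave p = 0.00433, where the smallest possible is 0.00216. By DESeq2 on recovered reads the adjusted p was 0.0246, and by edgeR it was 0.111. Each value rested on 208 to 1025 whole reads, and no 100-base stretch of the Gstt1 transcript occurred in a transcript of another gene, so that reads were not split with a copy.

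Leaving out each liver in turn kept the Gstt1 log2 fold change between -1.05 and -0.85, and the exact permutation p stayed between 0.00433 and 0.00649 in all 12 repeats. The limma adjusted p was under 0.05 without saline 49 (0.0264) and without LNA29 48 (0.0223), the livers nearest to the other group, where 0.152% and 0.232% of all genes were called.

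Gstt1 lies on chromosome 10 between its paralogs Gstt3 and Gstt4, with Gstt2 after Gstt4. Gstt3 ranged from 3246 to 4990.2 in saline livers with a median of 4170 and from 1736 to 4113 in LNA29 livers with a median of 2096, and 5 of 6 LNA29 livers lay below all saline livers. Its log2 fold change was -0.81 (standard error 0.19, unadjusted p = 0.000583, limma adjusted p = 0.138). For Gstt2 the log2 fold change was -0.41 (standard error 0.22, limma adjusted p = 0.707). Gstt4 was listed without reads in all 12 livers. Reads of Gstt3 may be shared with an overlapping or similar gene model, Gm20441, which holds 23.9% of its 100-base stretches.

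**Figure D2:**
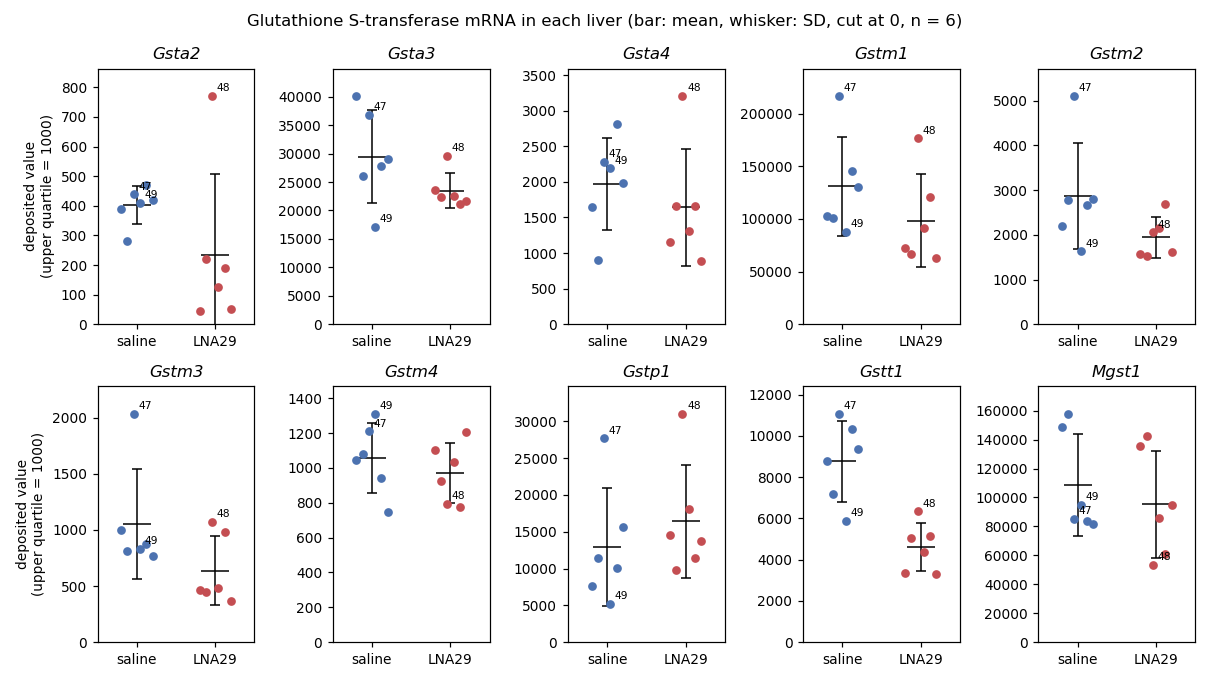
Scaled reads (y axis, upper quartile 1000, linear scale from 0) of each member in the 6 saline (blue) and 6 LNA29 livers (red), with the mean as a bar and the SD as a whisker. Numbers mark saline 47, saline 49 and LNA29 48. In Gstt1 the groups meet only at LNA29 48 and saline 49, and LNA29 48 stands at the top of the LNA29 group in Gsta2, Gsta4, Gstm1 and Gstp1.

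In the alpha class, the low-level member Gsta2 had a fold change whose size depended on the scale and on a single liver. Gsta2 ranged from 283 to 472 in saline livers with a median of 415, and from 45 to 771 in LNA29 livers with a median of 157. In 5 LNA29 livers Gsta2 lay below every saline liver, with LNA29 44 (45) and LNA29 54 (51.5) lowest, whereas LNA29 48 (771) lay above every saline liver. The means were 402 ± 64.7 and 233 ± 273 (SD, n = 6 each), so that the LNA29 group had a coefficient of variation of 117% against 16.1% in saline.

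The Gsta2 log2 fold change was -1.44 with a standard error of 0.51 (unadjusted p = 0.0116, limma adjusted p = 0.417), and the exact permutation test gave p = 0.0411. On recovered reads it was smaller, -0.77 in edgeR and -0.69 in DESeq2, below the size of Gstt1 in the same fits (-0.86 and -0.85), and the ratio of means was 0.581 against 0.525 for Gstt1. Without LNA29 48 the log2 fold change in limma grew to -1.92 with a limma adjusted p of 0.0482, and the exact permutation p was under 0.05 in only 2 of the 12 repeats that left out a liver. LNA29 values of Gsta2 rested on 3.6 to 40.9 reads. Its reads were whole in only 5 of 12 livers, and 35.0% of its 100-base stretches occurred in other genes, Gsta1, Gm3776 and Gm10639, so the assignment of reads to Gsta2 is uncertain. Summed with Gsta1, whose mean in saline livers was only 12.8, the log2 fold change was -1.34 (standard error 0.48, limma adjusted p = 0.420).

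The abundant alpha member Gsta3, whose mouse enzyme detoxifies the epoxide of aflatoxin, ranged from 17120 to 40125 in saline livers with a median of 28403, and from 21094 to 29623 in LNA29 livers with a median of 22519.8. Among LNA29 livers, 5 lay close together between 21094 and 23525, and all were inside the saline range, since saline 49 was the lowest liver of all. Its log2 fold change was -0.29 with a 95% interval from -0.67 to 0.10 (limma adjusted p = 0.769). Without saline 49 it was -0.43 (exact permutation p = 0.0130), and without saline 43 it was -0.19.

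Gsta4, whose enzyme handles 4-hydroxynonenal from peroxidised lipids, ranged from 905 to 2818 in saline livers with a median of 2085 and from 890.4 to 3208 in LNA29 livers with a median of 1481. LNA29 48 was again the highest of all livers and LNA29 54 the lowest, and the groups overlapped almost entirely. Its log2 fold change was -0.30 with an interval from -0.91 to 0.30 (limma adjusted p = 0.868). It was -0.52 without LNA29 48, -0.51 without saline 45, -0.18 without saline 51 and -0.15 without LNA29 54, and -0.73 with values beyond 1.5 SD left out (exact permutation p = 0.0238).

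The mu-class genes lie next to each other on chromosome 3, in the order Gstm5, Gstm7, Gstm6, Gstm3, Gstm2, Gstm1 and Gstm4. Gstm1, the main mu transferase of liver, ranged from 87800 to 216702 in saline livers with a median of 116888 and from 62890.4 to 176415 in LNA29 livers with a median of 82013. LNA29 44, 46 and 54 lay below every saline liver, while LNA29 48, 50 and 52 lay among the saline livers. Its log2 fold change was -0.45 with an interval from -1.03 to 0.14 (limma adjusted p = 0.758). It was -0.64 without LNA29 48 (exact permutation p = 0.0368) and -0.29 without saline 47.

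Gstm2 ranged from 1630 to 5105 in saline livers with a median of 2722 and from 1537 to 2698 in LNA29 livers with a median of 1837. All 6 LNA29 livers were below the saline mean and 3 were below every saline liver, but saline 49 lay among the LNA29 livers. The log2 fold change was -0.50 with a standard error of 0.22 (unadjusted p = 0.0377, limma adjusted p = 0.594), and the exact permutation p was 0.0498.

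Gstm3 ranged from 765 to 2035 in saline livers with a median of 854 and from 369.9 to 1075 in LNA29 livers with a median of 472. LNA29 44, 46, 50 and 54 lay below every saline liver, whereas LNA29 48 and 52 lay within the saline range. The log2 fold change was -0.76 with a standard error of 0.29 (unadjusted p = 0.0185, limma adjusted p = 0.486) and the exact permutation p was 0.0433.

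The exact p of Gstm3 was under 0.05 in 4, and that of Gstm2 in 3, of the 12 repeats that left out a liver. Without saline 47, the highest liver of both, their log2 fold changes were -0.55 for Gstm3 and -0.32 for Gstm2. Gstm3 rested on 18.4 to 116 reads, and 13.8% of its 100-base stretches occurred in other genes, among them Gstm1 and Gstm6.

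Gstm4 differed least of all members, with a saline range of 745 to 1310 and a median of 1063, and an LNA29 range of 774 to 1205 and a median of 981. All LNA29 livers lay inside the saline range. The difference was -0.11 on the log2 scale with an interval from -0.48 to 0.25 (limma adjusted p = 0.927), and it lay between -0.21 and -0.05 on leaving out each liver. Of the neighbours outside the member list, Gstm6 differed by -0.63 on the log2 scale (standard error 0.21, unadjusted p = 0.00745, limma adjusted p = 0.347) and Gstm7 by -0.07. The sum of all 7 mu genes, which does not depend on how reads were divided among them, differed by -0.44 on the log2 scale (limma adjusted p = 0.756, standard error 0.27). Gstm1 made up most of this sum, with a saline mean of 130855 against 138740, so the sum says little about the other mu genes. It leaves out Gm8834 and Gstm2-ps1, which share 100-base stretches with Gstm1 and Gstm3.

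Gstp1, the pi-class enzyme that in mouse liver is known for higher levels in males, was the only member with a positive log2 fold change. It ranged from 5214 to 27681 in saline livers with a median of 10749.6 and from 9783 to 31002 in LNA29 livers with a median of 14174. LNA29 48 and saline 47 were the highest livers of their groups and stood far above the others, and saline 49 was the lowest. On the log2 scale the difference was 0.45 with an interval from -0.26 to 1.15 (limma adjusted p = 0.805). It was 0.71 without saline 47, 0.23 without saline 49 and 0.24 without LNA29 48. Gstp1 reads were whole in 1 of 12 livers, and 52.8% of its 100-base stretches occurred in Gstp2 or the pseudogene Gstp-ps. The sum of Gstp1 and Gstp2 had a log2 fold change of 0.45. In saline livers Gstp2 had a mean of 111 against 12931 for Gstp1, so this sum could only repeat the Gstp1 value. Gstp-ps was not in the sum.

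Mgst1, the membrane-bound transferase and peroxidase of the endoplasmic reticulum and mitochondria, ranged from 81608 to 157794 in saline livers with a median of 89978 and from 53434 to 142390 in LNA29 livers with a median of 90170.4. High values stood in 4 livers of both groups, saline 43 (148625), saline 45 (157794), LNA29 44 (135400) and LNA29 46 (142390), and the other 8 livers lay at 94850 or lower. LNA29 48, the highest LNA29 liver for 7 members, was the lowest of all livers for Mgst1. Between the groups it differed by -0.22 on the log2 scale with an interval from -0.79 to 0.34 (limma adjusted p = 0.899). It was -0.08 without LNA29 48, lay between -0.12 and -0.10 without saline 43, saline 45 or LNA29 52, and was -0.36 without LNA29 46 and -0.34 without LNA29 44.

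**Figure D3:**
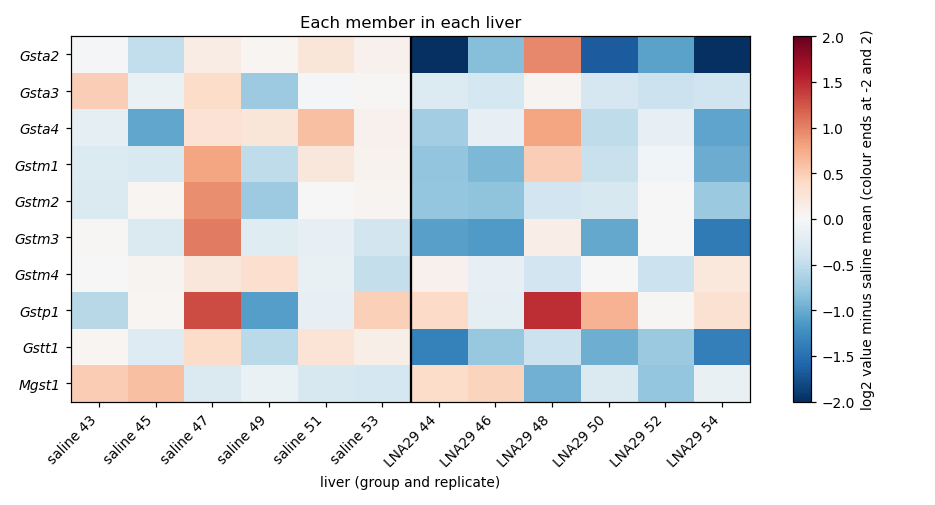
Log2 value of each member (rows) in each liver (columns) minus the mean of the saline livers, from blue (lower) to red (higher), with the colour scale ending at -2 and 2. The column of saline 47 is red for every member but Mgst1. The column of LNA29 48 is clearly red for Gsta2, Gsta4, Gstm1 and Gstp1, near white for Gsta3 and Gstm3, and blue for the other 4 members. The columns of LNA29 44 and LNA29 54 are mostly blue, and Mgst1 runs apart from the other rows.

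Some livers were at the top or bottom of their group for several members. Saline 47 was the highest saline liver for 5 members (Gstm1, Gstm2, Gstm3, Gstp1 and Gstt1) and saline 49 the lowest for 5 (Gsta3, Gstm1, Gstm2, Gstp1 and Gstt1). LNA29 48 was the highest LNA29 liver for 7 members, and LNA29 54 the lowest for 4 (Gsta4, Gstm1, Gstm3 and Gstt1). The median deviation of the 10 members from the mean of their group was 0.69 on the log2 scale in LNA29 48, 0.37 in saline 47 and -0.38 in saline 49.

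Saline 47, saline 49 and LNA29 48 were also at an end of their group in the trend with transcript length. Over 12217 genes, log2 values relative to the group mean declined with transcript length in saline 47 (slope -0.28 per unit of log2 length) and LNA29 48 (-0.21) and increased with it in saline 49 (0.40). LNA29 44 had the highest slope of its group (0.18), and its median member deviation from the group mean was -0.30. LNA29 54, the lowest LNA29 liver for 4 members, had a slope of 0.06, inside the range of its group, and a median deviation of -0.33. All 10 member transcripts, of 821 to 1707 bases, were shorter than the median of 2960 bases. Summed blood markers were highest in saline 47 (154110) and LNA29 48 (171275), with ranges of 36507 to 154110 and 37268 to 171275 in the groups. Most of this sum was Hba-a2, an alpha globin, and without it saline 47 stayed the highest saline liver (6338) while LNA29 48 (8746) was not the highest LNA29 liver. The parts of blood markers and of transcript length in the members' values were not tested. The length covariate below is taken relative to each group's mean, so it cannot show what part of a group difference goes with length.

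With each liver's length slope relative to its group as a covariate, which leaves the fold changes as they are and alters their error, Gstt1 had a limma adjusted p of 0.00156 and no other member passed the threshold. With saline 47 and LNA29 48 both left out, the log2 fold change of Gstt1 was -0.96 (limma adjusted p = 0.0428). In each of these fits Gstt1 was the only member called, where the covariate fit called 1.23% of all genes and the fit without both livers 0.152%.

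**Figure D4:**
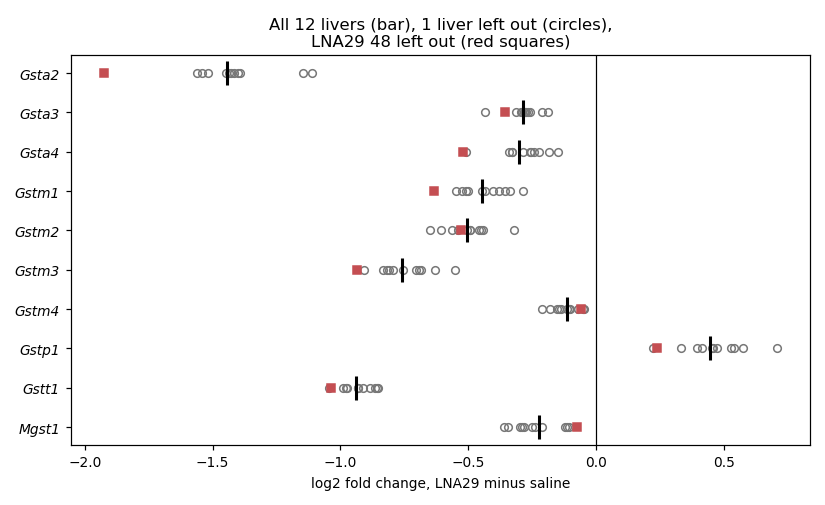
Log2 fold change of LNA29 minus saline (x axis) for each member with all 12 livers (bar), with 1 liver left out (circles) and with LNA29 48 left out (red squares). Values of Gstt1 stay within -1.05 and -0.85, those of Gsta2 spread from -1.92 to -1.11, and every member keeps its sign.

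Other genes of the pathway were read from lists by their role. Among 15 tested genes of the transferase and membrane (MAPEG) families outside the members, 0 had a limma adjusted p under 0.05. At an unadjusted limma p under 0.05, 3 were lower (Gstt3, Gstm6 and Gstz1), where 5.97% of all tested genes were. Of the 15 log2 fold changes, 13 were below 0, where 61.4% of all tested genes were, and several of the 15 genes rested on few reads. Gstz1, the enzyme of tyrosine breakdown also called maleylacetoacetate isomerase, ranged from 18240 to 22328 in saline and from 14868 to 17822 in LNA29 livers. Its groups did not overlap, where 0.713% of all tested genes had all LNA29 livers below all saline livers. Its log2 fold change was -0.32 (standard error 0.12, unadjusted p = 0.0149, limma adjusted p = 0.453), and the exact permutation p was the smallest possible, 0.00216.

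In the 19 tested genes of glutathione synthesis and breakdown, 0 passed the adjusted threshold in limma. At an unadjusted limma p under 0.05, 1 was lower, where 5.97% of all tested genes were. The lower gene was Anpep, an aminopeptidase that splits the dipeptide left from glutathione breakdown. Anpep stood at 4675 ± 351 in saline and 3307 ± 375 in LNA29 livers (SD, n = 6 each). Its groups did not overlap, where 0.713% of all tested genes had all LNA29 livers below all saline livers. On the log2 scale the difference was -0.50 ± 0.12 (standard error), with an adjusted p of 0.139 in limma and 0.0324 in DESeq2. The median log2 fold change of this list was 0.12. Next by p were Gclm, the modifier subunit of the rate-limiting enzyme of synthesis, at -0.37 (unadjusted p = 0.0656), and Cth, which supplies cysteine, at 0.49 (unadjusted p = 0.0889).

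All 7 exporters of conjugates had a log2 fold change below 0, where 61.4% of all tested genes did, and their median was -0.43. In limma 0 had an adjusted p under 0.05. At an unadjusted limma p under 0.05, 1 was lower, where 5.97% of all tested genes were. Several exporters rested on few reads, down to 0 to 4 per liver in the lowest, so their direction is uncertain. Abcc4 stood at -0.95 (limma adjusted p = 0.700) on 1 to 11 reads, and Abcc2, the canalicular exporter of glutathione conjugates, at -0.43 (limma adjusted p = 0.729).

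Among 12 regulators, 2 were lower at an unadjusted limma p under 0.05, where 5.97% of all tested genes were. Nr1i3, which encodes the receptor CAR, stood at -0.45 (standard error 0.15, limma adjusted p = 0.347), and Cebpa, a hepatocyte transcription factor, at -0.40 (standard error 0.17, limma adjusted p = 0.539). Nfe2l2, which encodes Nrf2, stood at -0.20 with an interval from -0.66 to 0.26.

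None of 10 reference targets of Nrf2 passed an unadjusted p of 0.05 in limma, and their median log2 fold change was -0.06. The smallest p belonged to Ugdh, which makes UDP-glucuronic acid, at -0.43 (limma adjusted p = 0.631), to Gclm, and to Hmox1, haem oxygenase, at 0.44 (limma adjusted p = 0.805). The Nrf2 core motif TGACNNNGC was searched on both strands in RefSeq promoters (GRCm38.p6, 250 bases before to 50 after the start), which 9 of the 10 members had. It matched in 2 of the 9, and in 3781 of all 27025 genes with a promoter in RefSeq. The windows are shown in the direction of the gene with the match in capitals, at chr1:21240454-21240482 for Gsta3 and chr6:138140461-138140489 for Mgst1.
Gsta3: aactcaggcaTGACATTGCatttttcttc
Mgst1: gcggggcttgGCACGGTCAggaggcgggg
The match in Mgst1 is on the opposite strand. Neither gene was among the 4 members with an unadjusted p under 0.05, and a match is a description of the letters only.

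Several transferases are pericentral in the liver lobule, so pericentral markers were read beside them. None of the 9 pericentral markers had an unadjusted p under 0.05 in limma, and their summed value ranged from 589320 to 1150720 in saline livers with a median of 727773 and from 339717 to 841946 in LNA29 livers with a median of 552733. Cyp2e1 made up most of this sum, and alone ranged from 509020 to 1073360 in saline and from 317962 to 764825 in LNA29 livers. The other 8 markers summed to 51461 to 80299.9 with a median of 65316 in saline and to 21755 to 78049 with a median of 66807 in LNA29 livers. LNA29 48, the highest LNA29 liver for 7 members, was lowest both in Cyp2e1 and in the sum of the others. Summed bile duct markers ranged from 603 to 906 and from 439 to 1169.8, highest in LNA29 48, Kupffer cell markers from 3922 to 6789 and from 3857 to 9479, stellate cell markers from 3294 to 4130 and from 2585 to 4438, and endothelial markers from 3937 to 4490 and from 3415 to 4450, in saline and LNA29 livers respectively. At an unadjusted limma p under 0.05, 1 of 6 Kupffer cell markers was higher, 1 of 6 stellate cell markers was lower, and no marker of the other types passed. Of all 12486 tested genes, 243 were higher and 5.97% were lower at that level. The part of cell composition in the members' values was not tested.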

How the data were processed

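Polyadenylated RNA of 6 saline-treated and 6 LNA29-treated mouse livers was sequenced as single reads of 100 bases. The authors mapped reads with MapSplice2 and estimated reads per gene with RSEM; the submitters' processing notes name RSEM and mm9, without versions. The deposited signal values are these reads scaled to a common upper quartile. Between 92.2% and 93.9% of values per liver were whole multiples of 1 read (within 0.02), so reads were recovered and rounded for count tests. The authors' group means, signed fold changes and p-values, and unnamed columns, were not used.

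Log2(value + 1) was tested with limma 3.58.1 (R 4.3.3, trend) in 12486 genes (mean value 10 or more), and p-values were adjusted by Benjamini-Hochberg with a threshold of 0.05. Single genes were also tested by two-sided exact permutation. For low genes a fold change on this scale can differ from that on reads. For Gsta2 it was larger in size (-1.44 in limma against -0.77 in edgeR and -0.69 in DESeq2). Alternatives were pseudocounts 0.1 and 10, no filter, a mean of at least 100, a common median, edgeR 4.0.16, DESeq2 1.42.0, values beyond 1.5 SD left out, each liver left out, and copies summed. The length covariate, the removal of saline 47 and LNA29 48 together, and alternatives for the count at unadjusted p were chosen after seeing the data. Members and lists were chosen with earlier results of these data known. All members are named, and from each list of the pathway the genes with an adjusted p under 0.05, otherwise the 3 smallest unadjusted p. Some genes under this rule are not reported here. Gstm7, Gstt2, Gstt4, Nfe2l2, Cyp2e1 and Hba-a2 were named beyond this rule, after their values were seen. Transcript lengths and 3′ UTRs came from GENCODE M21 (GRCm38), not the authors' build. Scripts were tested on simulated data. Python 3.11.15 with scipy 1.17.1 was used for the other steps.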

Additional observations from a re-analysis of the deposited data

Results flagged for a closer look

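In 3 cases a value stood apart from the other 5 livers of their group by Dixon's criterion, among 20 groups of 6 livers tested, where chance gives about 1 in 20. On the log2(value + 1) scale, Gsta2 in saline 45 was 8.15, the lowest saline value, and the nearest was 8.61. Gsta3 in LNA29 48 was 14.85, the highest LNA29 value, and the nearest was 14.52. Gstm3 in saline 47 was 10.99, the highest saline value, and the nearest was 9.97. Saline 47 was also the highest saline liver for 5 of the 10 members, and LNA29 48 the highest LNA29 liver for 7.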

How the results depend on the processing

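No member changed sign under any of its 22 or 23 alternatives, but some of these could not change a sign. Without the filter, with a mean of at least 100 and with the length covariate, fold changes equal those of the main fit. For Gstm2, Gstm3 and Gstm4 the summed alternative is mostly the Gstm1 value. The median log2 fold change of the members stayed between -0.52 and -0.28. The number of members called, 0 in limma, was 0 in 16 of 22 alternatives. It was 1 (Gstt1) with DESeq2, with the length covariate and with saline 47 and LNA29 48 left out, and 2 (Gsta2 and Gstt1) with values beyond 1.5 SD left out, which narrows the spread by construction. Leaving out each liver gave 0 to 2, with 1 without saline 49 (Gstt1) and 2 without LNA29 48 (Gsta2 and Gstt1). The Gstt1 adjusted p ranged from 0.00156 to 0.249, and the Gsta2 adjusted p from 0.0308 to 0.884. The 4 members lower at an unadjusted p under 0.05 became 1 with edgeR and 1 with DESeq2, and 2 to 5 on leaving out each liver, with 2 without saline 47 and 2 without LNA29 54. Over all genes, 20 were called in limma, 10 with a common median, 72 with DESeq2, 154 with the length covariate and 217 with values beyond 1.5 SD left out. Leaving out each liver gave 1 to 29, with 1 without saline 43, LNA29 50, LNA29 52 or LNA29 54, 3 without saline 51, 7 without saline 53, 8 without LNA29 46 and 11 without saline 47. The cause was not tested. No paired analysis was run, because no label ties a saline mouse to an LNA29 mouse. Depth limits Gsta2, with as few as 3.6 reads in a liver, whereas the other members had at least 18.4.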
